A study of Mus musculus with 18 samples.

Results

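The genes described here make, regulate and break down polyamines in mouse splenic B cells. The set has 8 named genes, which are *Odc1*, *Amd1*, *Srm* and *Sms* for synthesis, *Azin1*, *Oaz1* and *Oaz2* for control of the first enzyme, and *Sat1* for breakdown. Of these 8 genes, 6 were found, by Entrez number, among the 28096 genes of the count tables, and all 6 passed the filter on low counts. *Oaz1* and *Oaz2*, the antizymes, were not analysed here. A processed pseudogene of the former, *Oaz1-ps*, held 644 to 1435 counts per library, but its reads cannot stand for those of the parent gene.

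The 18 RNASeq libraries came from B cells isolated with a Miltenyi kit from spleens of C57BL/6 N mice aged at least 8 weeks, with 3 libraries in each of 6 groups. B cells of either genotype, WT or *Ubqln1*-/-, received nothing (resting), an F(ab)2 fragment against IgM at 10 μg/mL, which crosslinks the B cell receptor (BCR), or LPS of K12 *E. coli* at 20 μg/mL, which acts through Toll-like receptor 4. Cells were harvested after 4 hr. The *Ubqln1*-/- mice carry a germline deletion of exon 2, made by Cre in embryonic stem cells, so the loss is not limited to B cells. Triplicate wells were pooled before RNA purification. The study calls the replicates independent experiments, and the sources do not say whether they were separate mice, so p-values measure the spread between these samples.

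Putrescine, spermidine and spermine are small positively charged molecules that bind RNA and DNA and that growing cells need in quantity. Ornithine decarboxylase (*Odc1*) makes putrescine from ornithine, S-adenosylmethionine decarboxylase (*Amd1*) makes the aminopropyl donor, and spermidine synthase (*Srm*) and spermine synthase (*Sms*) add aminopropyl groups in turn. Antizyme sends ornithine decarboxylase to the proteasome, antizyme inhibitor 1 (*Azin1*) is an inactive relative of the enzyme that binds antizyme in its place, and spermidine/spermine N1-acetyltransferase 1 (*Sat1*) acetylates polyamines for export or oxidation. Much of this control acts on translation and protein stability, which mRNA counts do not measure.

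In GRCm38.p6 coordinates of RefSeq, the protein-coding genes lie at chr12:17544808-17551502 (*Odc1*), chr10:40287458-40302188 (*Amd1*), chr4:148591513-148594619 (*Srm*), chrX:157443851-157492287 (*Sms*), chr15:38487430-38519294 (*Azin1*) and chrX:155213126-155216449 (*Sat1*). Windows ending at an annotated start were matched for 4 of the 6 genes. They are shown because *Odc1*, *Amd1* and *Sms* rose together with both stimuli while *Sat1* did not. Each line gives the 250 bases before the start, 5′ to 3′ on the gene's strand, from RefSeq (GRCm38.p6): chr12:17544623-17544872 (+) for *Odc1*, chr10:40302189-40302438 (-) for *Amd1*, chrX:157492288-157492537 (-) for the more upstream of 2 *Sms* windows and chrX:155216450-155216699 (-) for *Sat1*. The *Odc1* window ends at an annotated start inside the gene span given above, so its last bases lie within the gene. Capitals mark matches to the motifs searched.
Odc1: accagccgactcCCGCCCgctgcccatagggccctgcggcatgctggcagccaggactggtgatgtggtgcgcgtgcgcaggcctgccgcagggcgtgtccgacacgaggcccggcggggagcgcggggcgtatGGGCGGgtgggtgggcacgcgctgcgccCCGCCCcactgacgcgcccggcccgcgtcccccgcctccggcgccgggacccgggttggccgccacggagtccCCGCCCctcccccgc
Amd1: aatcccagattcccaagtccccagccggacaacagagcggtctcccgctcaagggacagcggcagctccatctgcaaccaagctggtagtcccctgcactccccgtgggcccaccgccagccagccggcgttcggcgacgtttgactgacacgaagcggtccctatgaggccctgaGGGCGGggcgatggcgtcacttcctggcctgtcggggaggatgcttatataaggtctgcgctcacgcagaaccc
Sms: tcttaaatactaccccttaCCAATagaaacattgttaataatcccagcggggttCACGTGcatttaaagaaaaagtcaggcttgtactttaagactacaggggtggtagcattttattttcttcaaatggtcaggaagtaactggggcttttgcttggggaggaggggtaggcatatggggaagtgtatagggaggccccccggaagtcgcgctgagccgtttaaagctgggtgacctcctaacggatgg
Sat1: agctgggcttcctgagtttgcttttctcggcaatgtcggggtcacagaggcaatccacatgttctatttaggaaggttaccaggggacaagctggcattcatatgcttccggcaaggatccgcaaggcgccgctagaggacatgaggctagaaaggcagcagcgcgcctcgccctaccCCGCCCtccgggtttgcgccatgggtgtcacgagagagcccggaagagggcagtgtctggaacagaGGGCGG

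The motifs were searched on both strands. The E-box CACGTG, the sequence that MYC with MAX binds, had 1 match in the *Sms* window shown, 196 bases before the start, and no match in the other windows. It was found in 6.02% of 32851 RefSeq windows of this length. The GC box (GGGCGG or its complement CCGCCC) had 4 matches in *Odc1*, 1 in *Amd1* and 2 in *Sat1*, and 32.7% of all windows held it. The other *Sms* window also had 4. The CCAAT box matched once, in the *Sms* window shown (33.8% of all windows). TATAAA (12.4%) and the cyclic AMP response element tgacgtca (1.55%) matched none, and no motif overlapped a different one, although 3 of the GC boxes in the other *Sms* window overlapped each other. The windows shown were 80.0% G or C for *Odc1*, 64.4% for *Amd1*, 47.2% for *Sms* and 59.6% for *Sat1*, against a median of 52.4% over all windows. The other *Sms* window was 75.2% G or C. A match is a description of the letters and not evidence of binding.

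The libraries held 15368941 to 41072854 counts. *Ubqln1*, the targeted gene, averaged 63.5 RPKM (the read count scaled to gene length and library size) in resting WT and 26.3 RPKM in resting *Ubqln1*-/- cells, and its log2 fold change between genotypes was -1.27, -1.42 and -1.44 in resting, anti-IgM and LPS cells (edgeR adjusted p at most 6.68e-08). The counts cover the whole gene, so exons outside the deletion still contribute. B cell markers were abundant (6 genes, summed 1330 to 4820 RPKM, lowest after anti-IgM), T cell markers (6 genes) summed to at most 0.771 RPKM, NK markers (3 genes) to at most 0.269 and erythroid markers (4 genes) to at most 5.23. Myeloid markers (7 genes) summed to 4.82 to 17.7 RPKM and plasma cell markers (3 genes) to 41.1 to 206. In bulk samples, fewer cells of a type and less RNA per cell cannot be told apart.

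At rest, *Sat1* had the highest level per length of the 6 genes, and after either stimulus *Srm* did. In resting WT cells the means were 81.6 ± 4.68 RPKM for *Sat1*, 35.7 ± 7.36 for *Srm*, 26.7 ± 1.28 for *Azin1*, 9.29 ± 2.83 for *Odc1*, 5.74 ± 0.423 for *Sms* and 2.38 ± 0.198 for *Amd1* (SD, n = 3). The samples of *Odc1* and *Sms* overlapped, whereas the other neighbours in that order did not. After anti-IgM, WT cells held *Srm* at 190.0 ± 16.9 RPKM, *Sat1* at 91.0 ± 5.65, *Azin1* at 41.2 ± 2.57, *Odc1* at 37.8 ± 6.82, *Sms* at 8.96 ± 1.41 and *Amd1* at 5.46 ± 0.28. *Azin1* and *Odc1* then overlapped. The order by mean was the same after LPS, and *Ubqln1*-/- cells had the order of WT cells in each condition.

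Some of these levels rest on sequence that other genes share. Of the 50-base windows of one annotated transcript per gene, 87.6% for *Amd1*, 42.2% for *Odc1* and 28.7% for *Sms* also occur in transcripts of other genes in the GENCODE M21 annotation, against 2.4% to 7.28% for *Srm*, *Azin1* and *Sat1*. Most of the *Amd1* windows are shared with *Amd2*, which held 0 to 4 counts per library, and the *Sms* windows with the pseudogene *Sms-ps*, which held 169 to 763 counts beside 329 to 1161 for *Sms*. How reads with several matches were counted is not given in the sources used here, so the levels of *Amd1*, *Odc1* and *Sms* are uncertain. With *Sms* and *Sms-ps* summed, an alternative chosen after seeing the data, the log2 fold change in WT cells was 0.65 with anti-IgM and 0.65 with LPS.

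**Figure D1:**
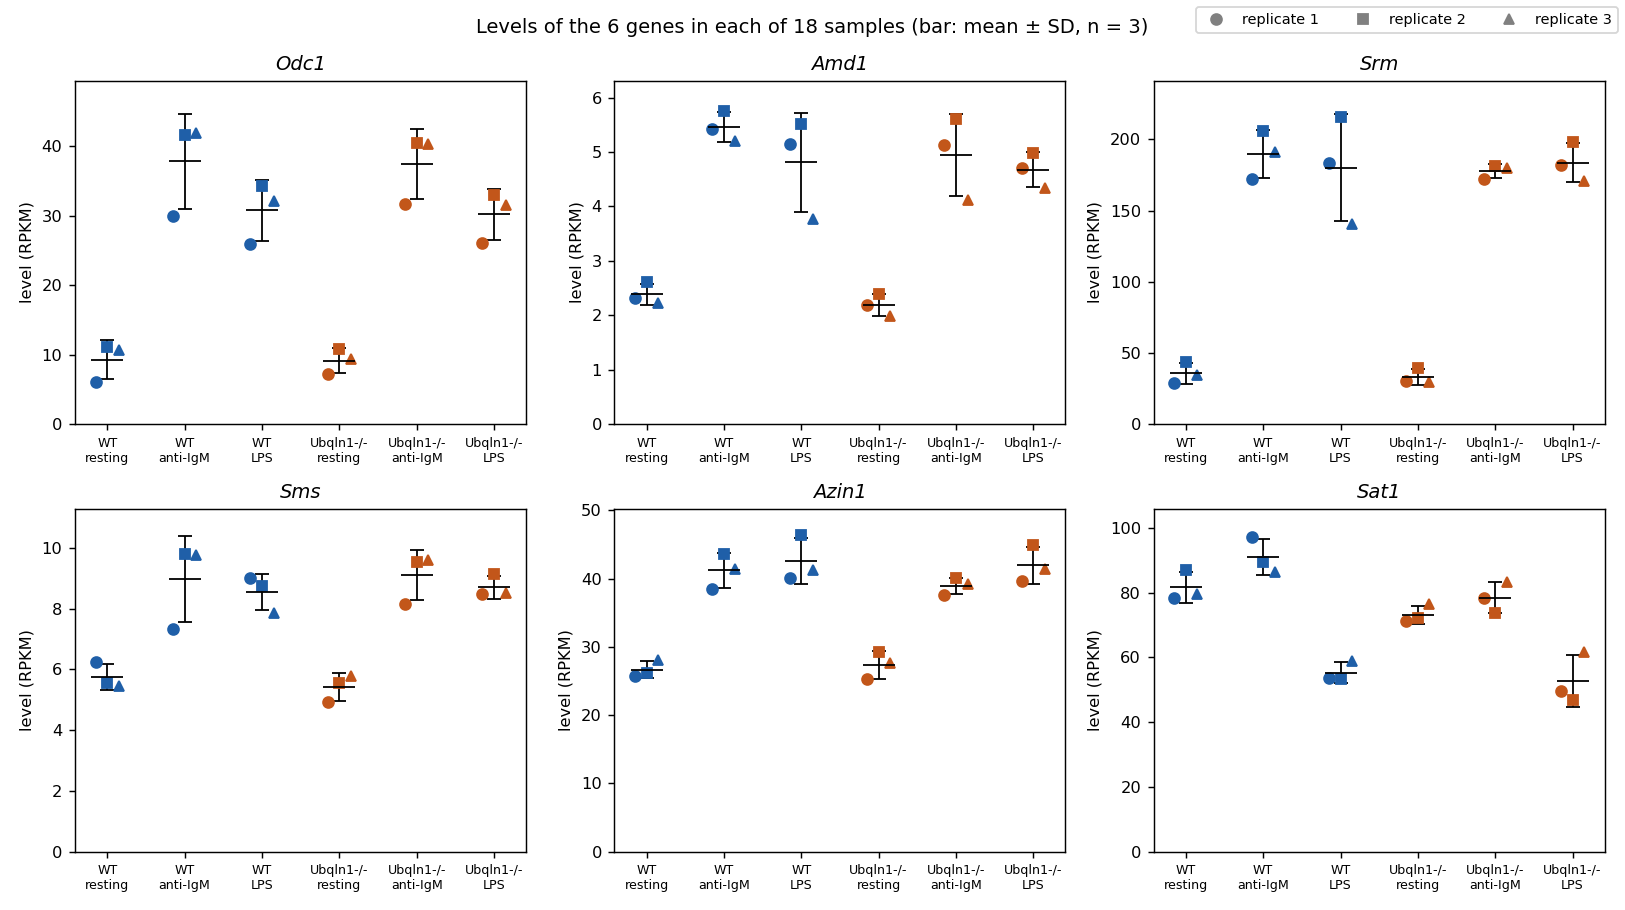
Level of each of the 6 genes (RPKM, vertical axes from 0) in each of the 18 samples, by genotype and stimulation (horizontal axis). Symbols mark the replicate number, and bars the mean ± SD of 3 samples. The 4 synthesis genes and *Azin1* were higher in every stimulated sample than in any resting sample of the same genotype, and *Sat1* was lower in every LPS sample.

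The first comparison asked how BCR crosslinking changed the genes in WT cells. *Odc1* stood at 6.02, 11.1 and 10.7 RPKM in resting replicates 1, 2 and 3 and at 30.0, 41.7 and 41.9 RPKM after anti-IgM. *Srm* stood at 29.1, 43.6 and 34.2 RPKM at rest and at 172.5, 206.1 and 191.4 RPKM after anti-IgM. Neither gene's groups came near each other. *Odc1* rose 4.03-fold (log2 fold change 2.01, SE 0.205, edgeR adjusted p = 2.36e-07) and *Srm* 5.30-fold (2.41, SE 0.158, adjusted p = 2.39e-09). These were the largest changes among the 6 genes, and the only ones past the thresholds of the study, an absolute log2 fold change over 2 with an adjusted p under 0.001, which 3.76% of all genes tested passed. *Odc1* did so narrowly: without resting replicate 1, anti-IgM replicate 2 or anti-IgM replicate 3 its log2 fold change was 1.79, 1.94 or 1.93, and *Srm* alone passed them.

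The next enzymes of the pathway rose less. *Amd1* stood at 2.32, 2.60 and 2.22 RPKM at rest and at 5.43, 5.76 and 5.20 RPKM after anti-IgM (log2 fold change 1.19, SE 0.14, edgeR adjusted p = 1.17e-06). *Sms* stood at 6.23, 5.54 and 5.46 RPKM at rest and at 7.34, 9.78 and 9.76 RPKM after anti-IgM (log2 fold change 0.64, SE 0.109, adjusted p = 6.16e-05). The groups of both genes were apart, and for *Sms* the lowest stimulated sample, replicate 1, was close to the highest resting one. Of the aminopropyl transferases, spermidine synthase thus changed 5.30-fold and spermine synthase 1.56-fold.

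*Azin1*, which spares ornithine decarboxylase from antizyme, rose 1.54-fold. Its level was 25.7, 26.1 and 28.1 RPKM at rest and 38.5, 43.6 and 41.4 RPKM after anti-IgM (log2 fold change 0.63, SE 0.0726, edgeR adjusted p = 1.01e-06). *Sat1* stood at 78.3, 86.9 and 79.5 RPKM at rest and at 97.3, 89.4 and 86.3 RPKM after anti-IgM. Its groups overlapped, and its log2 fold change of 0.16 (95% interval -0.03 to 0.34) did not pass the test (adjusted p = 0.123).

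With anti-IgM, then, 5 of the 6 genes rose in WT cells and none fell, in a comparison in which 64.6% of all genes tested were called and 32.4% were called higher. The samples of these 5 genes did not overlap between the groups, as was so in the higher direction for 33.4% of all genes tested. The median log2 fold change was 0.92 over the 6 genes and -0.01 over all genes tested.

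With LPS, the synthesis genes and *Azin1* rose by amounts close to those with anti-IgM, while *Sat1* fell. *Odc1* reached 25.9, 34.3 and 32.1 RPKM (log2 fold change 1.71, SE 0.203, edgeR adjusted p = 1.97e-06) and *Srm* 183.8, 216.0 and 140.9 RPKM (2.33, SE 0.158, adjusted p = 6.56e-09). *Amd1* reached 5.14, 5.51 and 3.78 RPKM, with a log2 fold change of 1.01 (SE 0.139, adjusted p = 9.32e-06). Replicate 3 was the lowest LPS sample of both *Srm* and *Amd1*, and still lay above every resting sample. *Sms* at 9.02, 8.74 and 7.87 RPKM and *Azin1* at 40.1, 46.3 and 41.2 RPKM changed by 0.58 and 0.67 on the log2 scale (adjusted p = 0.000202 and 6.82e-07).

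*Sat1* was at 53.5, 53.3 and 59.0 RPKM in WT cells with LPS, below every resting and every anti-IgM sample. It fell by 0.56 on the log2 scale against resting cells (SE 0.087, edgeR adjusted p = 3.18e-05). Thus 5 of the 6 genes rose and 1 fell with LPS, where 61.2% of all genes tested were called, 31.2% higher and 30.1% lower. None of the 6 overlapped between the groups, as held for 31.8% of all genes in the higher and 30.5% in the lower direction. The median log2 fold change was 0.84 over the 6 genes, against -0.01 over all genes tested. *Srm* alone passed the thresholds of the study, as did 1.80% of all genes tested. Markers of other cells moved too. In WT cells the 7 myeloid markers summed to 11.1 to 17.0 RPKM at rest, 6.72 to 9.54 RPKM with anti-IgM and 4.82 to 6.29 RPKM with LPS, so that they were lower with both stimuli, whereas *Sat1* was lower with LPS. The 3 plasma cell markers summed to 103 to 206, 91.3 to 183 and 63.3 to 148 RPKM. Over the 18 samples *Jchain* held 35.1 to 186 RPKM of the plasma cell sum, and *Sdc1* and *Prdm1* at most 23.3 and 6.2. Of the myeloid sum, *Adgre1* and *Lyz2* held up to 12.2 and 6.46 RPKM and no other gene over 1.28. These sums thus rest mostly on 1 or 2 genes. The part of these markers in the fall of *Sat1* was not tested.

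Set against each other, the stimuli differed in *Sat1* and, less firmly, in *Odc1*. In WT cells *Sat1* was lower with LPS than with anti-IgM by a log2 fold change of -0.72 (SE 0.0867, edgeR adjusted p = 4.97e-06), and in *Ubqln1*-/- cells by -0.57 (SE 0.0876, adjusted p = 7.25e-05). It was the 1 gene of the 6 called, where 32.4% of all genes tested were called in WT and 31.3% in *Ubqln1*-/- cells (15.0% and 14.5% in the lower direction). For *Odc1* the log2 fold change was -0.30 in WT (95% interval -0.70 to 0.11, adjusted p = 0.261) and -0.31 in *Ubqln1*-/- cells (-0.72 to 0.10, adjusted p = 0.249). The groups overlapped, yet LPS was lower in 3 of 3 pairs of the same replicate number in each genotype. With the replicate number as a block, *Odc1* was called lower with LPS in WT (-0.29, SE 0.0716, adjusted p = 0.00293) and in *Ubqln1*-/- cells (-0.31, SE 0.0727, adjusted p = 0.00209).

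The *Odc1* samples followed the replicate number. *Odc1* was lowest in replicate 1 of all 6 groups, as was *Azin1*, and 3.93% of all genes tested shared that order. *Amd1* was lowest in replicate 3 of all 6 groups, as were 3.33% of all genes tested. Replicate 1 is the sample whose label carries no number.

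For *Srm*, *Sms*, *Amd1* and *Azin1* the stimuli were not told apart in WT cells. The log2 fold change of LPS against anti-IgM had a 95% interval of -0.39 to 0.24 for *Srm*, -0.29 to 0.15 for *Sms*, -0.46 to 0.09 for *Amd1* and -0.10 to 0.20 for *Azin1*. These intervals do not show equal levels.

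**Figure D2:**
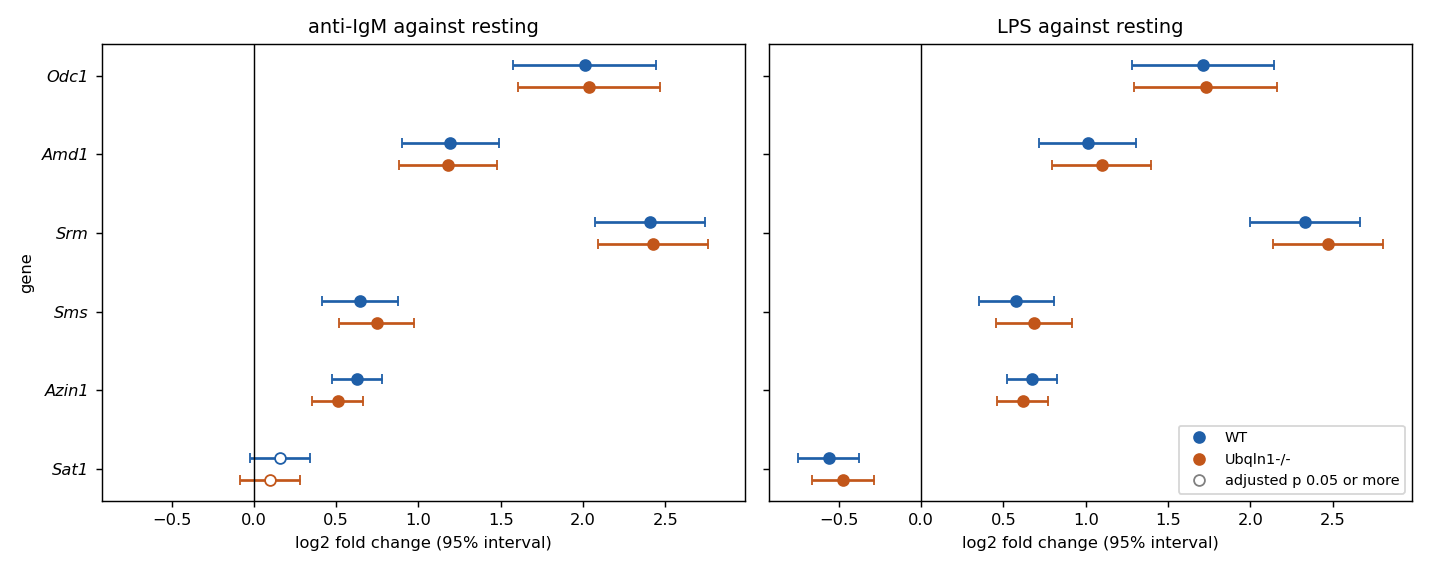
Log2 fold change against resting cells of the same genotype (horizontal axes) for each of the 6 genes, with anti-IgM on the left and LPS on the right. Points are edgeR estimates in WT and *Ubqln1*-/- cells, lines their 95% intervals, and open circles changes that did not pass an adjusted p of 0.05. *Sat1* with anti-IgM was the gene that did not pass, at 0.16 in WT and 0.10 in *Ubqln1*-/- cells.

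*Ubqln1*-/- cells were examined to ask whether the loss changes these responses. In them *Odc1* stood at 7.25, 10.8 and 9.31 RPKM at rest, at 31.7, 40.4 and 40.3 RPKM after anti-IgM and at 26.1, 32.9 and 31.6 RPKM after LPS. *Srm* stood at 30.0, 39.4 and 29.8 RPKM at rest, at 172.2, 181.3 and 180.2 RPKM after anti-IgM and at 182.1, 198.1 and 170.7 RPKM after LPS. No stimulated sample of either gene came near a resting one. The log2 fold changes with anti-IgM were 2.04 for *Odc1* and 2.43 for *Srm* (edgeR adjusted p = 2.07e-07 and 2.44e-09), and with LPS 1.73 and 2.47 (1.98e-06 and 4.05e-09).

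*Amd1*, *Sms* and *Azin1* rose in the knockout cells as well, by 1.18, 0.75 and 0.51 on the log2 scale with anti-IgM and by 1.10, 0.69 and 0.62 with LPS (edgeR adjusted p at most 4.4e-05). *Amd1* ranged from 1.99 to 2.39 RPKM at rest, 4.12 to 5.60 with anti-IgM and 4.34 to 4.98 with LPS, *Sms* from 4.91 to 5.79, 8.14 to 9.59 and 8.46 to 9.14, and *Azin1* from 25.2 to 29.3, 37.7 to 40.0 and 39.6 to 44.9. For these genes too no stimulated sample overlapped a resting one. *Sat1* stood at 71.3, 72.0 and 76.4 RPKM at rest, at 78.3, 73.7 and 83.4 RPKM after anti-IgM and at 49.6, 46.8 and 61.8 RPKM after LPS. Its anti-IgM samples overlapped the resting ones (log2 fold change 0.10, adjusted p = 0.328), and its LPS samples lay below them (-0.48, SE 0.088, adjusted p = 0.00019). So 5 of the 6 genes rose with anti-IgM, where 65.3% of all genes tested were called, 32.9% in the higher direction. With LPS 5 rose and 1 fell, where 60.7% were called, 30.6% higher and 30.2% lower. Groups that did not overlap were seen in 35.6% of all genes in the higher direction with anti-IgM, and with LPS in 33.5% in the higher and 34.0% in the lower direction. Myeloid markers summed to 12.7 to 17.7 RPKM at rest, 6.7 to 7.84 RPKM with anti-IgM and 5.59 to 8.36 RPKM with LPS, and plasma cell markers to 75.4 to 88.4, 64.4 to 79.9 and 41.1 to 55.0 RPKM. Their part was again not tested.

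Between genotypes, none of the 6 genes was called by edgeR in resting, anti-IgM or LPS cells, where 0.0565%, 0.0989% and 0.0424% of all genes tested were called. At an unadjusted p under 0.05, for which no share of all genes is given here, the number of these genes was 0, 1 and 0. By limma with voom and by DESeq2, 0 of 6 were also called in each condition. The 1 gene was *Sat1* after anti-IgM, at -0.21 on the log2 scale in knockout against WT cells (95% interval -0.40 to -0.03, edgeR adjusted p = 0.845). Its 3 WT samples lay above its 3 knockout samples both there and at rest (-0.16, adjusted p = 1.0), a pattern that 5.08% and 3.44% of all genes tested showed in the lower direction. After LPS the genotypes overlapped. Plasma cell markers were lower in the knockout samples in each condition. They summed to 75.4 to 88.4 RPKM against 103 to 206 RPKM in WT at rest, and to 64.4 to 79.9 against 91.3 to 183 with anti-IgM. With LPS the sums were 41.1 to 55.0 against 63.3 to 148 RPKM. The part of these markers in the *Sat1* values was not tested.

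For the synthesis genes and *Azin1* the genotypes overlapped in every condition. The 95% interval of the log2 fold change between genotypes after anti-IgM was -0.42 to 0.39 for *Odc1*, -0.41 to 0.22 for *Srm*, -0.42 to 0.14 for *Amd1*, -0.20 to 0.24 for *Sms* and -0.23 to 0.07 for *Azin1*. With 3 samples a group, these intervals from the fit without a block do not show equal levels. For *Odc1* the interval after anti-IgM was -0.16 to 0.14 once the replicate number was a block. With the replicate number as a block, edgeR called 0 of the 6 genes in each condition, although over all genes the count went from 8 to 49 at rest, from 14 to 94 with anti-IgM and from 6 to 125 with LPS.

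The responses themselves were also compared between genotypes, by the interaction of genotype and stimulus. For *Odc1* the anti-IgM response differed by 0.03 (95% interval -0.57 to 0.63) and the LPS response by 0.02 (-0.58 to 0.62) on the log2 scale. For *Srm* the differences were 0.02 (-0.44 to 0.47) and 0.14 (-0.31 to 0.59), and for *Azin1* -0.12 (-0.34 to 0.10) and -0.06 (-0.28 to 0.16). None of the 6 genes passed in either interaction, by edgeR, limma with voom or DESeq2, and none had an unadjusted edgeR p under 0.05. Of all genes tested, 0.0% were called in either interaction.

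**Figure D3:**
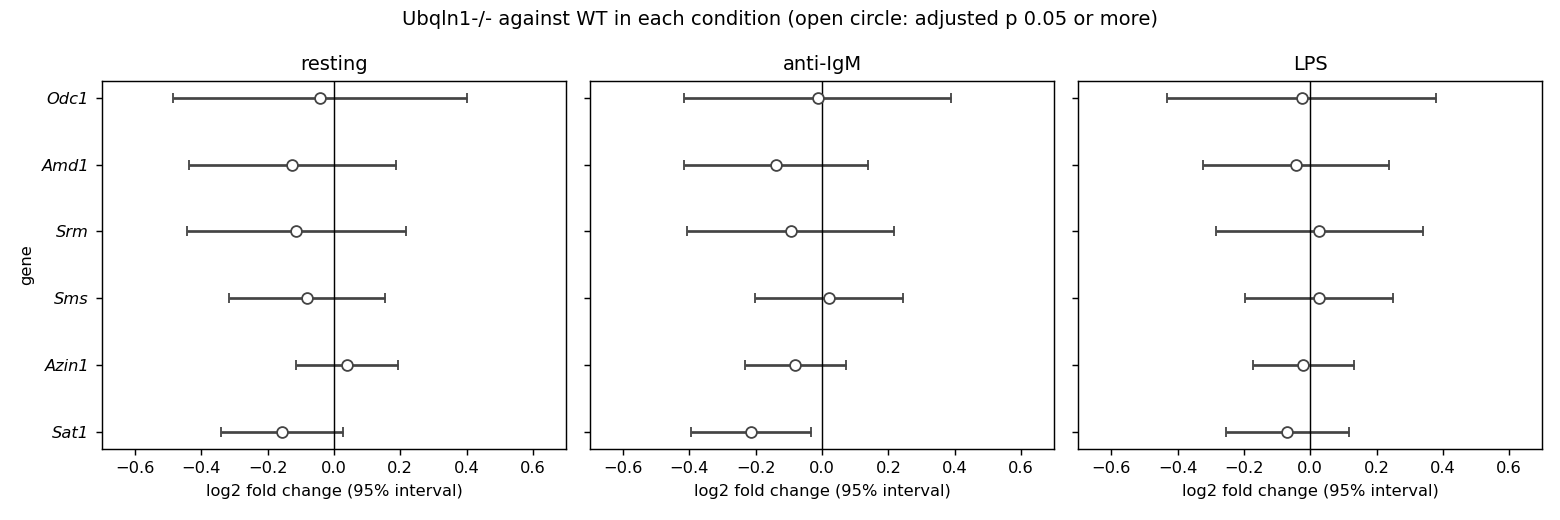
Log2 fold change of *Ubqln1*-/- against WT cells (horizontal axes) for each of the 6 genes in resting, anti-IgM and LPS cells. Circles are edgeR estimates and lines 95% intervals, and open circles did not pass an adjusted p of 0.05. The interval of *Sat1* after anti-IgM, -0.40 to -0.03, was the only one of the 18 that left out 0.

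The pathway around the 6 genes was followed in a further list of 28 genes, of which 27 had rows in the tables and 19 passed the filter on low counts. The 8 that did not, among them *Azin2* and *Arg1*, had at most 11 counts in any library. In WT cells 13 of the 19 rose with anti-IgM, 3 fell and 3 did not pass the test, where 64.6% of all genes tested were called and 32.4% were called higher. The median log2 fold change was 0.61, against -0.01 over all genes tested. With LPS 11 rose, 4 fell and 4 did not pass, where 61.2% of all genes were called and 31.2% were called higher, with a median of 0.49 against -0.01. The same counts in *Ubqln1*-/- cells were 13, 3 and 3 with anti-IgM (65.3% of all genes called) and 11, 3 and 5 with LPS (60.7%).

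Of the 8 tested genes for S-adenosylmethionine and methionine salvage, 6 rose, 1 fell and 1 did not pass with anti-IgM in WT cells, and 5 rose, 2 fell and 1 did not pass with LPS. Of all genes tested, 64.6% were called with anti-IgM (32.4% higher) and 61.2% with LPS (31.2% higher). *Mat2a*, the catalytic subunit of the methionine adenosyltransferase that makes S-adenosylmethionine, changed by 1.47 with anti-IgM and 1.40 with LPS on the log2 scale in WT cells (edgeR adjusted p = 1.38e-08 and 4.28e-08), while its regulatory partner *Mat2b* changed by -0.37 and -0.46 (1.99e-06 and 2.6e-07). *Mtap*, which splits the methylthioadenosine left by *Srm* and *Sms*, changed by 1.71 and 1.46 (2.27e-09 and 2.13e-08). Further along methionine salvage, *Enoph1* changed by 0.70 and 0.80 and *Got1* by 0.76 and 0.52, and all 4 changes passed. *Mri1* passed with anti-IgM (0.26, adjusted p = 0.0382) and not with LPS (-0.09), and *Apip* passed with LPS (0.49, adjusted p = 0.00447) and not with anti-IgM (0.22).

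*Adi1*, the acireductone dioxygenase of salvage, went in opposite directions. It changed by 0.53 with anti-IgM and by -0.23 with LPS in WT cells (edgeR adjusted p = 8.23e-05 and 0.0368), and differed between the stimuli by -0.76 (SE 0.0905, adjusted p = 4.42e-06). In *Ubqln1*-/- cells the change was 0.56 with anti-IgM and -0.21 with LPS. The latter did not pass without the replicate block (adjusted p = 0.0571) and passed with it (adjusted p = 0.0228).

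Spermidine is also the donor for hypusine, a modified lysine of the translation factor eIF5A. The 4 genes of this branch rose with anti-IgM in WT cells, a comparison in which 32.4% of all genes tested were called higher. *Eif5a* rose by 1.44, the deoxyhypusine synthase *Dhps* by 0.61, the hydroxylase *Dohh* by 0.67 and *Eif5a2* by 0.40 on the log2 scale (edgeR adjusted p at most 0.0255). With LPS *Eif5a*, *Dohh* and *Dhps* rose by 1.20, 0.60 and 0.19, and *Eif5a2* did not pass (-0.09, adjusted p = 0.613).

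Polyamine transport was split. *Atp13a3*, a polyamine transporter of the P5B ATPase family, changed by 0.97 with anti-IgM and 0.72 with LPS in WT cells (edgeR adjusted p = 1.48e-08 and 6.61e-07). Its lysosomal relative *Atp13a2* changed by -1.55 and -1.29 (1.22e-08 and 1.47e-07), the largest fall among the 19 genes. *Slc3a2*, the heavy chain of several amino acid transporters, changed by 1.73 and 0.78 (6.86e-08 and 0.000331). *Oat*, which links ornithine to glutamate and proline, changed by -0.25 with anti-IgM (adjusted p = 0.0135) and did not pass with LPS (-0.11).

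The remaining genes tested, of low level (group means under 10 CPM), complete the counts and are named after their values were seen. *Smox*, spermine oxidase, rose with both stimuli in WT cells (0.63 and 1.08, edgeR adjusted p = 0.0231 and 0.000451). *Paox*, which oxidizes acetylated polyamines, fell with LPS (-0.50, adjusted p = 0.0303) and did not pass with anti-IgM (0.06). *Arg2*, an arginase, passed with neither (0.08 and 0.40).

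**Figure D4:**
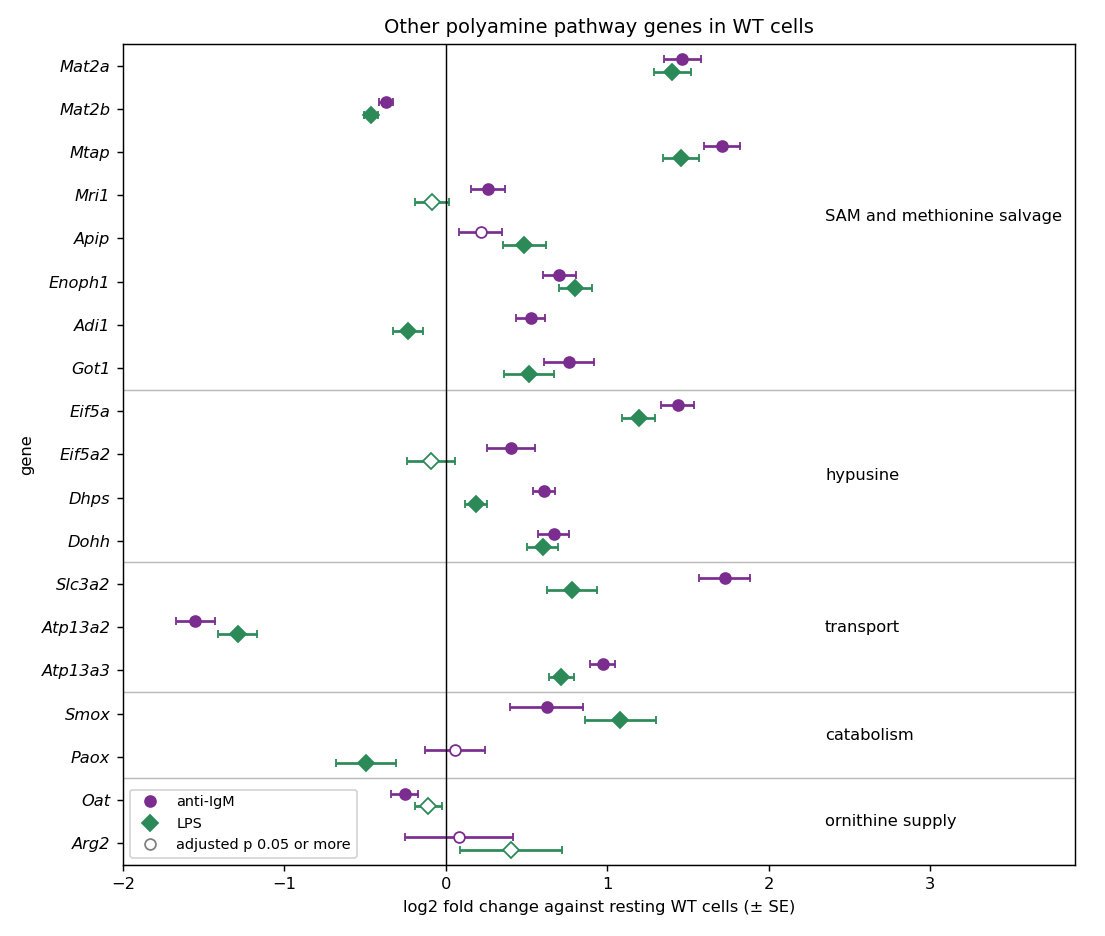
Log2 fold change against resting cells (horizontal axis, edgeR estimate ± SE) in WT cells of the 19 tested genes of the wider pathway, grouped by role. Circles are anti-IgM, diamonds LPS, and open symbols did not pass an adjusted p of 0.05. *Mtap*, *Mat2a*, *Eif5a* and *Slc3a2* stood farthest to the right with anti-IgM, and *Atp13a2* farthest to the left with both stimuli.

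Between stimuli, 7 of the 19 genes were lower with LPS than with anti-IgM in WT cells and 0 were higher, by edgeR, where 32.4% of all genes tested were called and 15.0% were called lower. With both directions counted, the share of these genes called was thus near that of all genes. All 7 calls were in the lower direction, in which 15.0% of all genes were called. With the replicate block, and in *Ubqln1*-/- cells, some of the 19 were called higher with LPS, so no direction is read for the list. The 7 were *Adi1*, *Slc3a2*, *Dhps*, *Mri1*, *Eif5a2*, *Atp13a3* and *Paox*. The largest differences were those of *Slc3a2* (-0.94, SE 0.154, adjusted p = 0.000129) and *Adi1*. At an unadjusted p under 0.05 the number differing was 11. limma with voom called 0 higher and 7 lower, and DESeq2 0 higher and 6 lower. With the replicate block 3 were higher and 10 lower. The shares of all genes under these settings are not given here, so these counts are not read as a trait of the list. In *Ubqln1*-/- cells 2 were higher with LPS, *Apip* and *Oat*, and 6 were lower. Of all genes tested, 31.3% were called there and 14.5% were called lower. With the block 2 of the 19 were higher and 9 lower, again without a share of all genes beside them. Between genotypes 0 of the 19 passed in any condition or interaction, by edgeR, limma with voom or DESeq2, and 0 had an unadjusted edgeR p under 0.05. With the block 0 passed as well, but 1, 3 and 1 had an unadjusted edgeR p under 0.05 in resting, anti-IgM and LPS cells. No share of all genes at that threshold is given here. The lowest was that of *Slc3a2* after anti-IgM (-0.31, SE 0.075, adjusted p = 0.0641). The fit without the block gave -0.32 for this gene (edgeR adjusted p = 0.977), and its groups overlapped. *Slc3a2* was lower in the knockout sample of 3 of 3 pairs in each condition. The share of all genes with that order is not given here.

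The tested genes whose pattern over the 18 samples was most like that of each of the 6 were found by the root mean square difference of log2 CPM (the count scaled to library size), with each gene centred on its own mean, among 8562 genes with a mean of at least 10 CPM. For *Odc1* they were *Slc7a1*, a cationic amino acid transporter, and *3110082I17Rik*, both at 0.126 log2 units, where the median gene was at 0.941. For *Srm* they were *Rrp1b* (0.109) and the monocarboxylate transporter *Slc16a1* (0.138), against a median of 1.15. *Amd1* was closest to *Mogs* (0.10) and *Farsb* (0.103), *Sms* to *Pom121* (0.0898) and *Mesd* (0.0933), and *Azin1* to *Cse1l* (0.0417) and *Ssb* (0.0468). *Sat1* was closest to *Slc35f6* (0.0758) and to *Tgfbr2*, a subunit of the TGF-beta receptor (0.117), where the median gene was at 0.399. The samples share libraries and stimulations, so this likeness is a description over 6 groups.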

How the data were processed

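RNASeq of polyA RNA was performed by the study on 18 libraries (single-end reads of 50 bases). Reads were aligned by GSNAP (GRCm38), and the authors deposited one raw count per Entrez gene, over its exons, with a gene width and an RPKM value. The deposited RPKM was used only as an alternative for levels. Neither the counting program nor the gene annotation is given in the sources used here. Samples were grouped by the genotype and treatment in the labels, and the replicates without a number were called 1 by elimination.

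From the counts, 14161 genes passed the edgeR (4.0.16) expression filter and were fitted with TMM scaling and tested by quasi-likelihood in a single model of the 18 samples (6 group terms, no block). P-values were adjusted by Benjamini-Hochberg over all genes tested, and called means an adjusted p under 0.05. The standard error was the log2 fold change divided by the square root of F. RPKM in the text scales the count by gene width and by TMM-scaled library size. Totals of 15368941 to 41072854 counts set the precision. limma 3.58.1 with voom, DESeq2 1.42.0, RLE scaling, other filters, a replicate block, fits of only the groups compared, and leaving out each sample were alternatives. The fits were checked on simulated counts. Symbols came from RefSeq, which named 89.1% of the 28096 genes.

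Samples of the same number deviated together within each genotype and between genotypes after anti-IgM and LPS (r over 0.1 in every such pair, and in 43 of all 45 pairs, mean 0.266), so the numbers were taken to pair those samples. The weakest pairs were WT resting replicate 2 with *Ubqln1*-/- replicate 2 at rest (r = 0.083) and after anti-IgM (r = 0.055). The block was still used for the genotypes at rest. Replicate 2 also held the most counts in each of the 6 groups. The study compared *c-Myc* and *Ccnd2* in its RNASeq data by paired tests, while its filter for differential expression used single-term linear models. The members and gene lists were chosen with earlier results of these data known. Named genes are the members, *Ubqln1*, listed pathway genes with a group mean of at least 10 CPM, the 2 most similar genes per member, and the plasma cell and main myeloid markers. Low-level genes named outside this rule complete small counts (*Smox*, *Paox*, *Arg2*), exemplify untested genes (*Azin2*, *Arg1*) or are copies of a member (*Amd2*, *Sms-ps*, *Oaz1-ps*).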

Additional observations from a re-analysis of the deposited data

How the results depend on the processing

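For the 6 genes, 950 of 952 log2 fold changes under the alternatives kept their side of an adjusted p of 0.05. The other 2 were those of *Odc1* with LPS against anti-IgM, which passed with the replicate block in both genotypes, so that the number of the 6 genes called in that comparison went from 1 to 2 in WT and from 1 to 2 in *Ubqln1*-/- cells. The block changed no other call of the 6 genes. None of the 320 values that belong to called changes changed sign. Of the 632 that belong to changes not called, 60 did, to at most 0.157 in absolute size, so no direction is read from those. The number of the 6 called was the same whichever sample was left out.

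Over all genes, the number called between genotypes moved with the tool. At rest it was 8, against 32 with DESeq2, 49 with the replicate block, 5 with only the groups compared and 2 to 11 with a sample left out (2 without WT replicate 3 or *Ubqln1*-/- replicate 1). With anti-IgM it was 14, against 47, 94, 2 and 2 to 10 (2 without WT or *Ubqln1*-/- replicate 2). With LPS it was 6, against 51, 125, 2 and 2 to 37, the 37 without replicate 2 of the WT LPS group. The LPS interaction called 0 genes, and 0 to 10 with a sample left out (10 without the same sample). The anti-IgM interaction called 0 throughout. The causes were not tested. Levels from the deposited RPKM moved by over 1 SD in 26 of 36 group means. Intervals for *Odc1* are wide in the fit without the block because its replicates differ. For its anti-IgM interaction the interval was -0.57 to 0.63 without the block and -0.22 to 0.26 with it. In either fit, 3 samples a group limit what differences between genotypes can be seen.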
